A study of Mus musculus with 18 samples.

Results

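The ERBB receptors and genes grouped with them as feedback inhibitors were followed in epidermal cells of mouse skin and of chemically induced skin tumors. The genes were chosen by symbol after earlier results of these data were known. They were 8 of the 52636 genes in the count table: the receptors Egfr, Erbb2, Erbb3 and Erbb4, the LRIG genes Lrig1, Lrig2 and Lrig3, and the inhibitor Errfi1. The LRIG genes were grouped by family, and what LRIG2 and LRIG3 do to the receptors was not examined. RNA-Seq was done on living cells sorted as EpCAM+CD45-CD140a-CD31-, although the labels name whole skin as the source. The mice were C57BL/6 littermates carrying floxed Zfp36 alleles, which encode tristetraprolin (TTP), a protein that binds AU-rich elements in mRNA and speeds their decay. Zfp36 fl/fl mice kept the gene, and Zfp36 ΔK14 mice lost it wherever a human keratin 14 promoter drove Cre recombinase, which includes hair follicle as well as epidermal keratinocytes. The skin had been mock treated, or had received the carcinogen DMBA and then the promoter TPA, in which case papillomas (tumors) and the tumor-free skin beside them (treated skin) were taken separately. The labels describe an RNeasy kit for sorted cells of all these sources and also a TRIzol extraction for treated tumor-free skin, and do not say which libraries, if any, the latter served. The treated mice were adults when DMBA was started, and TPA was given for months. Each of the 6 groups held 3 libraries, except mock ΔK14. There, replicates 2 and 3 held identical counts for every gene and were used as 1 library, which left 17 libraries. No label says which libraries shared a mouse, so p-values measure the spread between these libraries.

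ERBB receptors are tyrosine kinases that pair up when a ligand binds. EGFR, encoded by Egfr, binds EGF-like ligands, ERBB3 and ERBB4 bind neuregulins, and ERBB2 has no known ligand of its own and acts as the favored partner of the others. ERBB3 signals mainly through its partners because its own kinase is weak. The LRIG proteins are membrane proteins with leucine-rich repeats. LRIG1 promotes the loss of ERBB receptors from the cell and also marks stem cells of the upper hair follicle. ERRFI1, also called MIG6, is a cytoplasmic protein that is induced by receptor signaling and blocks the receptor kinase. In epidermis, EGFR signaling promotes proliferation of keratinocytes and holds back their differentiation.

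Total counts ran from 2808550 to 9617985 per library, and the 7 genes that could be tested had between 30 and 3933 counts in each. Zfp36 served as a check of the labels. It ranged from 152 to 713 CPM (the count scaled to a common library size) in the fl/fl libraries and from 10.05 to 38.4 CPM in the ΔK14 libraries, with no overlap. In each genotype mock replicate 1 lay far from the remaining mock libraries, at 34.0 and 32.8 on principal component 2 against −55.3 to −50.4. In these 2 libraries the summed level of 8 markers of hair matrix and shaft was 1542 to 1735 CPM, against 21.3 to 25.9 CPM in the other 3 mock libraries. It was 385 to 1306 CPM in treated skin and 18.0 to 94.5 CPM in tumors. Keratinocyte markers, 7 genes, summed to 3457 to 3580 CPM in mock replicate 1, 15738 to 16827 CPM in the other mock libraries, 3563 to 12361 CPM in treated skin and 9331 to 31219 CPM in tumors. The 5 fibroblast markers summed to between 405 and 1214 CPM in mock skin, 334 and 927 CPM in treated skin and 24.8 and 299 CPM in tumors. Of these, Dcn was 164 to 839 CPM in treated skin and 0.190 to 10.04 CPM in tumors, and the other 4 overlapped between treated skin and tumors. Melanocyte markers, 5 genes, ran from 41.0 to 318 CPM in mock skin, 51.3 to 364 CPM in treated skin and 8.82 to 38.2 CPM in tumors. Differentiated keratinocyte markers, 5 genes, summed to 535 to 674 CPM in mock replicate 1, 5585 to 7492 CPM in the other mock libraries, 675 to 9500 CPM in treated skin and 796 to 2524 CPM in tumors. Markers of follicle stem cells and upper follicle, 7 genes, summed to 357 to 833 CPM in mock skin, 631 to 2084 CPM in treated skin and 1030 to 3498 CPM in tumors. Within that list Lhx2 was 9.64 to 56.9 CPM in skin and 0 to 3.35 CPM in tumors. Lgr5 was 18.7 to 131 CPM in skin and 2.504 to 15.7 CPM in tumors. Sox9 and Plet1 went the other way. Sox9 was 65.5 to 179 CPM in skin and 254 to 672 CPM in tumors, and Plet1 54.0 to 297 and 535 to 2256 CPM. Cd34, Lgr6 and Krt79 overlapped between skin and tumors. No marker of these 6 lists was at 0 in every library. Whether these cells had a part in the differences described next was not tested. In sorted populations fewer cells of a type and less RNA per cell cannot be told apart.

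Because TTP recognizes the heptamer TATTTAT, the 3′ untranslated region, taken as the longest that is annotated for a gene, was searched for it, on the sense strand. It stood in 6 of the 8 genes: Lrig1 and Lrig2 had 2 each, Egfr, Erbb3, Lrig3 and Errfi1 had 1 each, and Erbb2 and Erbb4 had 0. Among 21062 genes with such a region, 27.4% held the heptamer. The regions differed widely in length, from 439 bases in Lrig3 and 1390 in Errfi1 to 6303 in Egfr and 7855 in Erbb4, against a median of 1085 bases over all genes. The 9-base form, with 1 more T at each end, stood in Erbb3 and Lrig1 and in 7.58% of genes. A site of each of the 6 genes is shown, because the heptamer is the motif that TTP binds, with the heptamer in capitals inside 29 bases of the sense strand. Positions are those of the heptamer in GRCm38. For Lrig1 and Lrig2 the site nearer the stop codon is shown, and the other Lrig1 heptamer overlaps it.
Egfr, chr11:16916299-16916305, plus strand: agttacaataaTATTTATgtttgtttggg
Erbb3, chr10:128568196-128568202, minus strand: actgtaaggatTATTTATttcaggaactt
Lrig1, chr6:94604633-94604639, minus strand: atgtacagagtTATTTATttatagaaatt
Lrig2, chr3:104456426-104456432, minus strand: ttaaaggtgtcTATTTATaagtaactgta
Lrig3, chr10:126015045-126015051, plus strand: aaaagatgcttTATTTATatagatgaacc
Errfi1, chr4:150868872-150868878, plus strand: gttatattactTATTTATgacaccgttaa

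All 8 genes are protein coding. In GRCm38, Egfr lies at chr11:16752203-16918158 and Erbb2 at chr11:98412470-98437716, both on the plus strand. Erbb3 is at chr10:128567523-128589652 and Erbb4 at chr1:68032186-69108059, both on the minus strand. Lrig1 is at chr6:94604529-94700158 and Lrig2 at chr3:104396418-104511918 on the minus strand, Lrig3 at chr10:125966168-126015359 and Errfi1 at chr4:150853919-150868892 on the plus strand. An exon of Erbb2 overlaps one of Mien1 and an exon of Lrig1 overlaps one of Slc25a26, each on the opposite strand. These neighbors reached at most 28.4 and 19.6 CPM. Whether counting used strand is not given in the sources used here, so the reads of these overlaps cannot be assigned.

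Per kilobase of exon, which allows genes to be compared with each other, Errfi1 was the most abundant of the 8 in every tumor library, at 89.2 to 166 CPM per kb. Egfr had 19.0 to 34.3, Erbb3 17.1 to 36.7 and Erbb2 6.14 to 10.9 CPM per kb in tumors. The LRIG genes stood in the order Lrig1 (8.70 to 28.2), Lrig2 (1.83 to 3.73) and Lrig3 (1.25 to 2.73 CPM per kb), with overlap between the last 2. In mock and treated skin the order of Lrig2 and Lrig3 was the reverse, with Lrig3 at 10.5 to 13.8 and Lrig2 at 2.17 to 5.16 CPM per kb and no overlap.

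**Figure D1:**
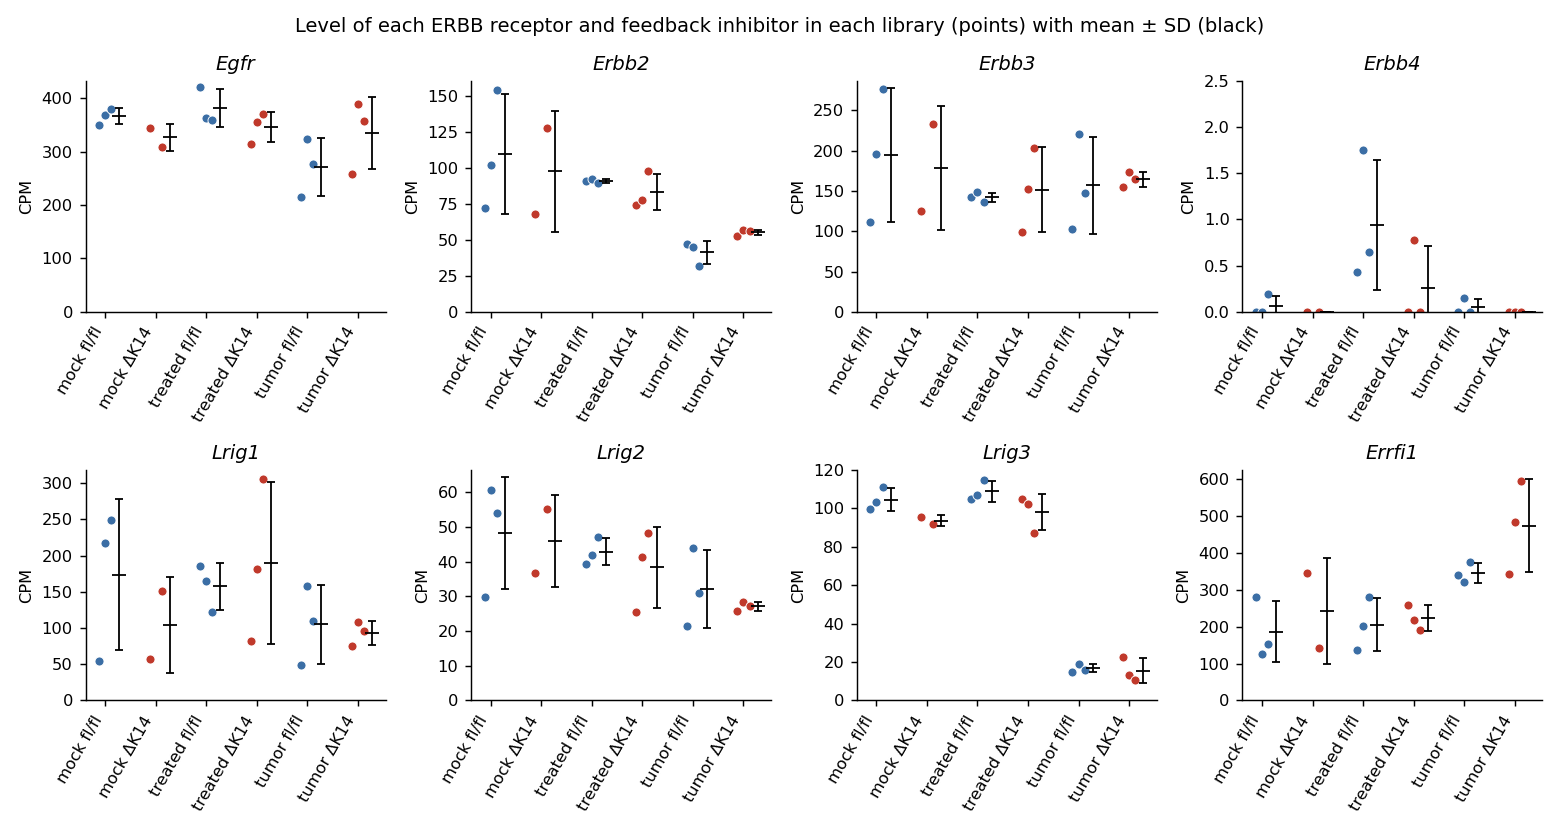
Level in CPM (vertical axes, from 0) of each gene in the 6 groups (horizontal axes). Points are libraries, blue for fl/fl and red for ΔK14, and the black mark and bar are the mean ± SD (n = 3, and 2 for mock ΔK14). Lrig3 lies between 87.3 and 115 CPM in all skin libraries and between 10.4 and 22.8 CPM in all tumors.

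The largest difference among the 7 tested genes was in Lrig3, a further membrane protein of the LRIG family. In mock skin it stood at 99.5, 103 and 111 CPM in fl/fl mice and at 95.5 and 91.6 CPM in ΔK14 mice. Treated skin gave 105, 107 and 115 CPM in fl/fl and 105, 102 and 87.3 CPM in ΔK14 mice. Tumors gave 15.0, 19.0 and 16.0 CPM in fl/fl and 22.8, 13.4 and 10.4 CPM in ΔK14 mice. Every tumor library was thus below every skin library, in both genotypes, and the mock and treated ranges overlapped. Against mock skin Lrig3 changed by −2.67 ± 0.25 in fl/fl mice (log2 scale, ± SE; edgeR adjusted p = 0.00671). In ΔK14 mice it was −2.68 ± 0.37 (edgeR adjusted p = 0.0117). Against treated skin it was −2.72 ± 0.19 (edgeR adjusted p = 0.000709) and −2.76 ± 0.30 (edgeR adjusted p = 0.000612), respectively. As a mean of both genotypes, Lrig3 fell 6.14-fold from mock skin and 6.62-fold from treated skin. The call in ΔK14 mice against mock skin, with 2 mock libraries, was lost without tumor replicate 2 (−2.59, edgeR adjusted p = 0.0718) or tumor replicate 3 (−2.47, 0.0530). The change from treated skin differed between genotypes by −0.02 ± 0.35 (edgeR adjusted p = 0.986). The 3 mock libraries with low hair matrix markers held 91.6 to 111 CPM of Lrig3, and tumors, with 18.0 to 94.5 CPM of these markers, held 10.4 to 22.8 CPM. The same 3 mock libraries held 18.7 to 19.6 CPM of the follicle marker Lgr5, against 2.504 to 15.7 CPM in tumors. Lhx2 was 9.64 to 17.4 CPM in them and 0 to 3.35 CPM in tumors, and Lgr6 190 to 258 and 4.51 to 70.9 CPM. Of the same list, Sox9 and Plet1 went the other way. Sox9 was 65.5 to 74.7 CPM in these mock libraries and 254 to 672 CPM in tumors, and Plet1 115 to 297 and 535 to 2256 CPM. Cd34 and Krt79 overlapped, and the part of follicle cells was not tested.

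A gene was called where the adjusted p was under 0.05 and the fold change over 2, and counts of called members are set beside the share of all tested genes that was called. In fl/fl tumors against mock skin 1 of the 7 tested genes was called lower (Lrig3) and 0 higher, where 1.88% of all genes were lower and 2.22% higher. In fl/fl tumors against treated skin Lrig3 and Erbb2 were called lower, 2 of 7, against 10.5% of all genes, and 0 were higher against 7.5%. In ΔK14 tumors Lrig3 alone was lower against mock skin, where the background was 7.22% lower and 7.05% higher. The same gene alone was lower against treated skin, where 15.5% of all genes were lower and 10.5% higher. With both genotypes averaged, Lrig3 and Erbb2 were called lower against mock skin (12.1% of all genes, 8.68% higher) and Lrig3 against treated skin (17.3% of all genes, 9.91% higher). The median over the 7 genes was −0.44 against mock skin and −0.50 against treated skin, beside −0.08 and −0.07 over all genes tested. These comparisons share their tumor libraries.

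**Figure D2:**
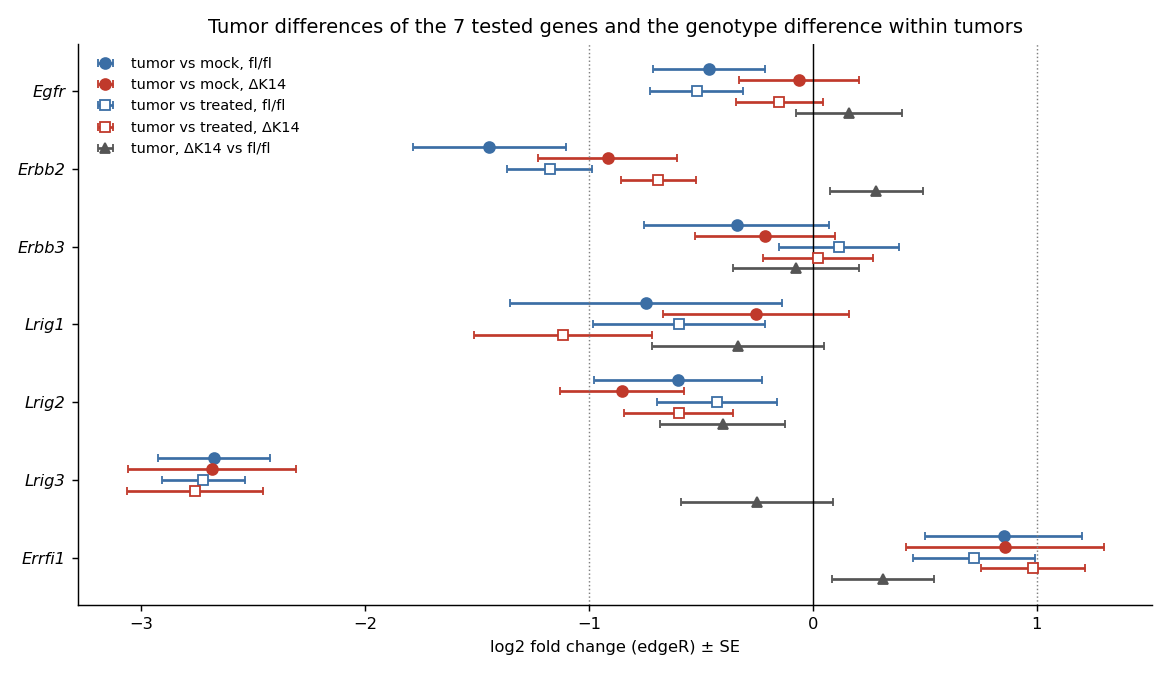
Log2 fold change ± SE (horizontal axis) of the 7 tested genes (vertical axis). Circles are tumors against mock skin and open squares tumors against treated skin, blue for fl/fl and red for ΔK14, and grey triangles are ΔK14 against fl/fl tumors. Dotted lines mark a 2-fold change. Lrig3 sits between −2.76 and −2.67 in all 4 tumor comparisons and at −0.25 between genotypes.

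Lrig1 had 54.9, 217 and 249 CPM in mock fl/fl and 57.2 and 150.5 CPM in mock ΔK14 skin. Treated skin held 186, 165 and 122 CPM in fl/fl and 81.5, 181 and 305 CPM in ΔK14 mice, and tumors held 48.6, 157 and 109.7 CPM in fl/fl and 75.0, 108 and 95.7 CPM in ΔK14 mice. The low mock values were those of replicate 1 in both genotypes, and tumors overlapped with skin. With both genotypes averaged, tumors differed from treated skin by −0.84 ± 0.31 (edgeR adjusted p = 0.0353), under the 2-fold threshold. In ΔK14 mice alone the difference in Lrig1 was −1.12 ± 0.40 (edgeR adjusted p = 0.0552), which missed the call on the adjusted p. DESeq2 called it (−1.11, adjusted p = 0.0214), as did edgeR with no low-count filter (−1.06, 7.25e-05) and without treated replicate 1 (−1.46, 0.00277). Without treated replicate 3 it was −0.60 (edgeR adjusted p = 0.178). Over both genotypes a call was made without treated ΔK14 replicate 1 (−1.02) or without tumor fl/fl replicate 2 (−1.03). Against mock skin the difference in Lrig1 was −0.44 ± 0.42 (edgeR adjusted p = 0.449) and, with mock replicate 1 of both genotypes left out, −0.89 ± 0.30 (0.0339).

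Lrig2, which like Lrig1 is a membrane protein of the family, lay between 29.97 and 60.6 CPM in mock skin, 25.6 and 48.2 CPM in treated skin and 21.5 and 43.8 CPM in tumors. The ranges of tumors and skin overlapped. The mean difference over both genotypes was −0.50 ± 0.19 against treated skin (edgeR adjusted p = 0.0398) and −0.67 ± 0.24 against mock skin (0.0590), and Lrig2 was not called in either. In ΔK14 tumors against mock skin it was called only without mock replicate 1 (−1.06, edgeR adjusted p = 0.0127).

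Errfi1, the inducible inhibitor of the receptor kinase, was the member with higher values in tumors. Mock skin gave 281, 126 and 152 CPM in fl/fl and 344 and 142 CPM in ΔK14 mice. Treated skin gave 136, 200.4 and 279 CPM in fl/fl and 259.5, 217 and 192 CPM in ΔK14 mice. Tumors gave 341, 319.6 and 374.5 CPM in fl/fl and 343, 482 and 595 CPM in ΔK14 mice. All tumors were above all treated skin, whereas the tumor range met that of mock skin at mock ΔK14 replicate 1. Against treated skin the difference was 0.72 ± 0.27 in fl/fl mice (edgeR adjusted p = 0.0876), 0.98 ± 0.23 in ΔK14 mice (0.0117) and 0.86 ± 0.19 as a mean of both (0.00236). The last was 1.82-fold and therefore not called, although it passed on the adjusted p. It was called without treated fl/fl replicate 3 (1.02), and within ΔK14 mice without tumor replicate 1 (1.20), without tumor replicate 2 (1.001) or without treated replicate 1 (1.11). Against mock skin the mean difference in Errfi1 was 0.91 ± 0.30 (edgeR adjusted p = 0.0424), and with mock replicate 1 of both genotypes left out it was 1.55 ± 0.22 (0.000475), which was called.

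Among the receptors, Erbb2 was lower in tumors. It stood at 72.3, 102 and 154 CPM in mock fl/fl and at 67.7 and 127.5 CPM in mock ΔK14 skin, then at 91.1, 92.7 and 89.6 CPM in treated fl/fl and 74.0, 78.1 and 97.9 CPM in treated ΔK14 skin. Tumors held 47.1, 44.9 and 32.0 CPM in fl/fl and 52.9, 56.7 and 55.9 CPM in ΔK14 mice. No tumor reached the lowest skin library, and within tumors the fl/fl libraries were all below the ΔK14 libraries. Against treated skin Erbb2 fell by 1.17 on the log2 scale in fl/fl mice (SE 0.19, edgeR adjusted p = 0.00595). In ΔK14 mice the difference was −0.69 ± 0.17 (edgeR adjusted p = 0.0131), under the 2-fold threshold. Against mock skin it was −1.44 ± 0.34 in fl/fl (edgeR adjusted p = 0.0577), −0.91 ± 0.31 in ΔK14 mice (0.0903) and −1.11 ± 0.24 as a mean of both (0.00749), the last a called change. That call was lost without mock fl/fl replicate 3 (−0.94) or mock ΔK14 replicate 2 (−0.90). It was larger, at −1.40 ± 0.20 (edgeR adjusted p = 0.000501), without mock replicate 1 of both genotypes. The difference between genotypes in the Erbb2 change from treated skin was 0.50 ± 0.24 (edgeR adjusted p = 0.396), so a smaller change in ΔK14 mice was not shown.

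Egfr, the receptor of most EGF-like ligands, stood at 309 to 379 CPM in mock skin, 315 to 422 CPM in treated skin and 215 to 388 CPM in tumors. The mean difference of tumors was −0.20 ± 0.17 from mock skin (edgeR adjusted p = 0.377) and −0.32 ± 0.14 from treated skin (0.0717). Fl/fl tumors, at 215, 323 and 276 CPM, were all below the treated fl/fl libraries, whose lowest value was 358 CPM (−0.52 ± 0.21, edgeR adjusted p = 0.0996). ΔK14 tumors, at 259, 388 and 357 CPM, overlapped with treated ΔK14 skin (−0.15 ± 0.19, edgeR adjusted p = 0.572).

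Erbb3, the neuregulin receptor with a weak kinase, showed overlapping ranges throughout, with 111 to 277 CPM in mock skin, 98.7 to 203 CPM in treated skin and 103 to 221 CPM in tumors. Its mean tumor difference was 0.08 ± 0.19 from treated skin and −0.22 ± 0.28 from mock skin (edgeR adjusted p = 0.739 and 0.583). Melanocytes and Schwann cells also use Erbb3. Melanocyte markers were lower in tumors, as given above, and 5 Schwann cell markers summed to between 2.59 and 46.8 CPM in tumors, 8.26 and 22.5 CPM in treated and 15.4 and 76.9 CPM in mock skin, with none at 0 in every library.

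Erbb4 was at or near the limit of detection. It had 0 counts in 11 of 17 libraries and at most 8, and did not pass the low-count filter in any comparison. Treated fl/fl skin had 4, 8 and 5 counts, treated ΔK14 replicate 2 had 6, mock fl/fl replicate 3 had 2 and tumor fl/fl replicate 2 had 1. A count of 0 allows up to 3 counts, or 0.332 to 1.503 CPM in the 11 libraries at 0, so expression below that was not detectable. These floors cover counting error only. With no low-count filter Erbb4 was called lower in tumors than in treated skin over both genotypes (−3.49 ± 1.104, edgeR adjusted p = 0.0081), a fit that rests on the few counts just given.

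Loss of TTP was then examined within each stage. In mock skin 0 of the 7 tested genes were called between genotypes, where 0% of all genes were called higher or lower. Zfp36 itself was not called there (−4.13 ± 0.86, edgeR adjusted p = 0.99998), although its groups did not overlap. It was called in tumors (−4.10 ± 0.30, edgeR adjusted p = 0.00882). With a replicate block edgeR called 78 genes higher and 32 lower in mock skin, and 0 members. In treated skin 0 were called, against a background of 0% higher and 0.00616% lower. In tumors 0 were called, against 0.0213% higher and 0.00711% lower. None of the 7 had an unadjusted p under 0.05 by edgeR in any of the 3 stages, and DESeq2 called 0 as well. In tumors the differences, ΔK14 against fl/fl, were 0.16 ± 0.24 for Egfr, 0.28 ± 0.21 for Erbb2 and −0.08 ± 0.28 for Erbb3. They were −0.33 ± 0.39 for Lrig1, −0.40 ± 0.28 for Lrig2, −0.25 ± 0.34 for Lrig3 and 0.31 ± 0.23 for Errfi1, with edgeR adjusted p between 0.542 and 0.924. The number of all genes called in tumors depended on 1 library: it went from 3 higher and 1 lower to 1132 and 1481 without tumor fl/fl replicate 1, and was 198 and 168 by DESeq2. None of the 7 members was called in either case. That library was the shallowest and also lay nearer the ΔK14 tumors, at 67.7 on principal component 1, against 32.0 and 41.0 in the other fl/fl tumors and 69.5 to 81.3 in ΔK14 tumors. Krt79, a marker of the upper follicle, stood at 11.5 CPM in it and at 737 and 788 CPM in the other fl/fl tumors, against 8.34 to 23.2 CPM in ΔK14 tumors. Cd34, of the same list, went the other way, at 137 CPM in it and 5.63 and 7.18 CPM in the other fl/fl tumors. In ΔK14 tumors Cd34 was 57.4 to 232 CPM. Elovl3, a sebaceous marker, was 0.501 CPM in that library, 75.9 and 102 CPM in the other fl/fl tumors and 0 to 0.543 CPM in ΔK14 tumors. The part of these cells was not tested. Of the 6 genes that hold the heptamer, Errfi1 and Egfr had positive and Erbb3, Lrig1, Lrig2 and Lrig3 negative differences in tumors.

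Treated skin was compared with mock skin to see the effect of DMBA and TPA outside tumors. No member was called in fl/fl mice, in ΔK14 mice or in both averaged, where 0% of all genes were called in either direction by edgeR, and none of the 7 had an unadjusted p under 0.05. Lrig3 differed by 0.08 ± 0.12 and Errfi1 by 0.02 ± 0.31 as a mean of both genotypes. DESeq2 called 0 members as well. Over all genes these counts depended on mock replicate 1. Without it edgeR called 1363 genes higher and 1224 lower in fl/fl mice, and without it in both genotypes 1503 and 1208 over both. With all libraries DESeq2 called 126 higher and 109 lower over both genotypes. No member was called in these fits, where Erbb3 was −0.70 ± 0.17 in fl/fl mice without mock replicate 1 (edgeR adjusted p = 0.0245) and Erbb2 was −0.52 ± 0.17 without it in both genotypes (0.0473). The tumor and treatment effects did not differ between genotypes at an adjusted p under 0.05 for any of the 7, where 0% (treated against mock and tumor against mock) and 0.0118% (tumor against treated) of all genes were called.

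The make-up of the receptor mRNA was then described per kilobase of exon, with no test. Erbb2 gave 20.3 to 27.1% of the summed receptor mRNA in skin and 11.2 to 20.05% in tumors, Egfr 30.1 to 48.8% in skin and 38.6 to 46.3% in tumors, and Erbb3 28.1 to 42.9% and 37.9 to 49.7%. The ratio of Erbb2 to Erbb3 was 0.556 to 0.866 in skin and 0.235 to 0.529 in tumors. Relative to Egfr, Lrig3 stood at 0.321 to 0.452 in skin and at 0.0396 to 0.119 in tumors, whereas Errfi1 stood at 1.02 to 3.17 in skin and at 3.13 to 5.26 in tumors. Lrig1 relative to Egfr was 0.318 to 1.68 in skin and 0.459 to 0.989 in tumors. The ratio of Errfi1 to Lrig3, which moves with both, was 2.83 to 8.40 in skin and 35.1 to 133 in tumors. Within the LRIG family Lrig3 made up 15.1 to 49.1% in skin and 6.03 to 14.9% in tumors, and Lrig1 made up 40.4 to 79.0% and 70.5 to 82.8%.

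**Figure D3:**
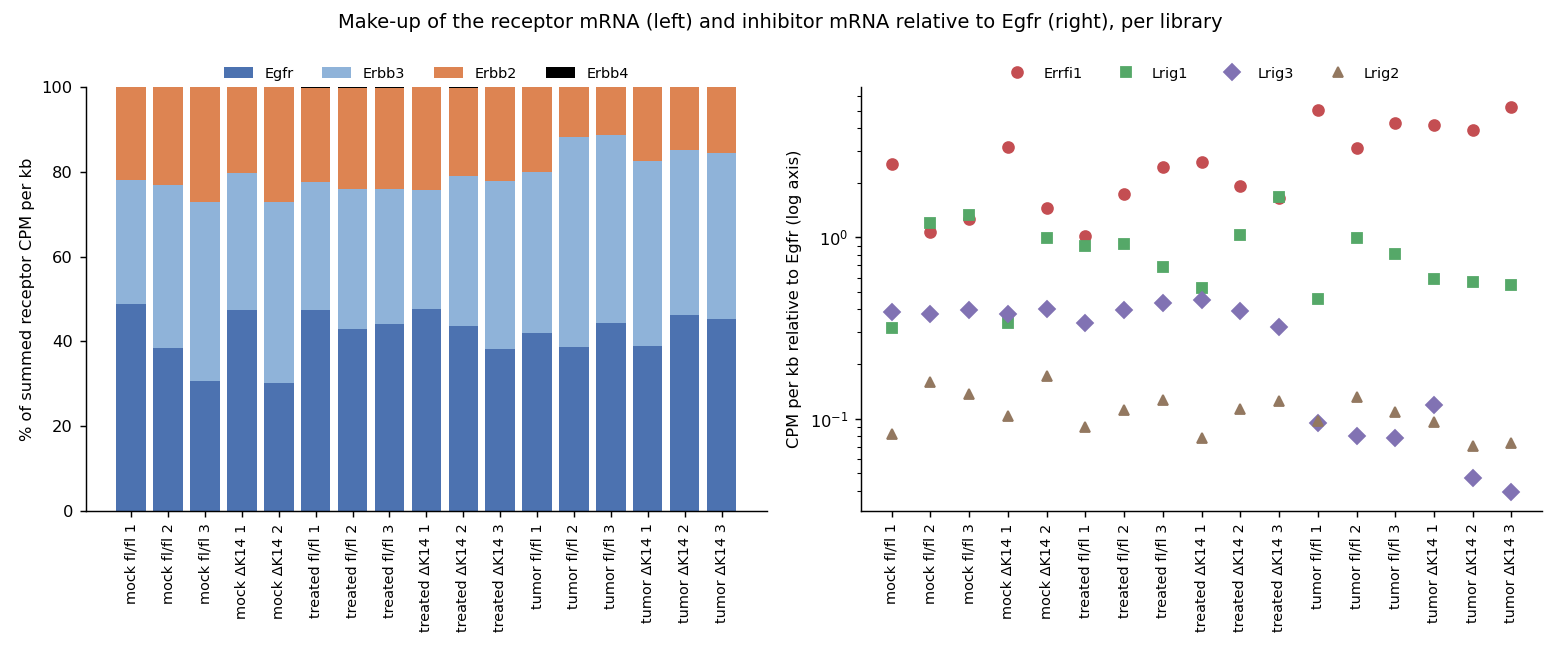
Left, share of each receptor in the summed receptor CPM per kb (vertical axis, percent) in each of the 17 libraries (horizontal axis). Right, CPM per kb of each LRIG gene and of Errfi1 relative to Egfr on a log axis in the same libraries. Erbb2 has its 6 lowest shares in tumors, from 11.2 to 20.05%, and Lrig3 its 6 lowest ratios, from 0.0396 to 0.119.

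In mock replicate 1 of both genotypes Erbb2, Erbb3, Lrig1 and Lrig2 were lower and Errfi1 higher than in the other mock libraries, without overlap. The share of all genes that part in this way was not counted. Whether the split is particular to these genes therefore cannot be said. Erbb2 was 67.7 to 72.3 CPM in these 2 libraries and 102 to 154 CPM in the other 3. Lrig1 was 54.9 to 57.2 against 150.5 to 249 CPM. Errfi1 was 281 to 344 against 126 to 152 CPM. Egfr (344 to 349.9 against 309 to 379 CPM) and Lrig3 (95.5 to 99.5 against 91.6 to 111 CPM) overlapped. The hair matrix markers and the keratinocyte markers moved with this split, as given above, and their part in it was not tested.

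**Figure D4:**
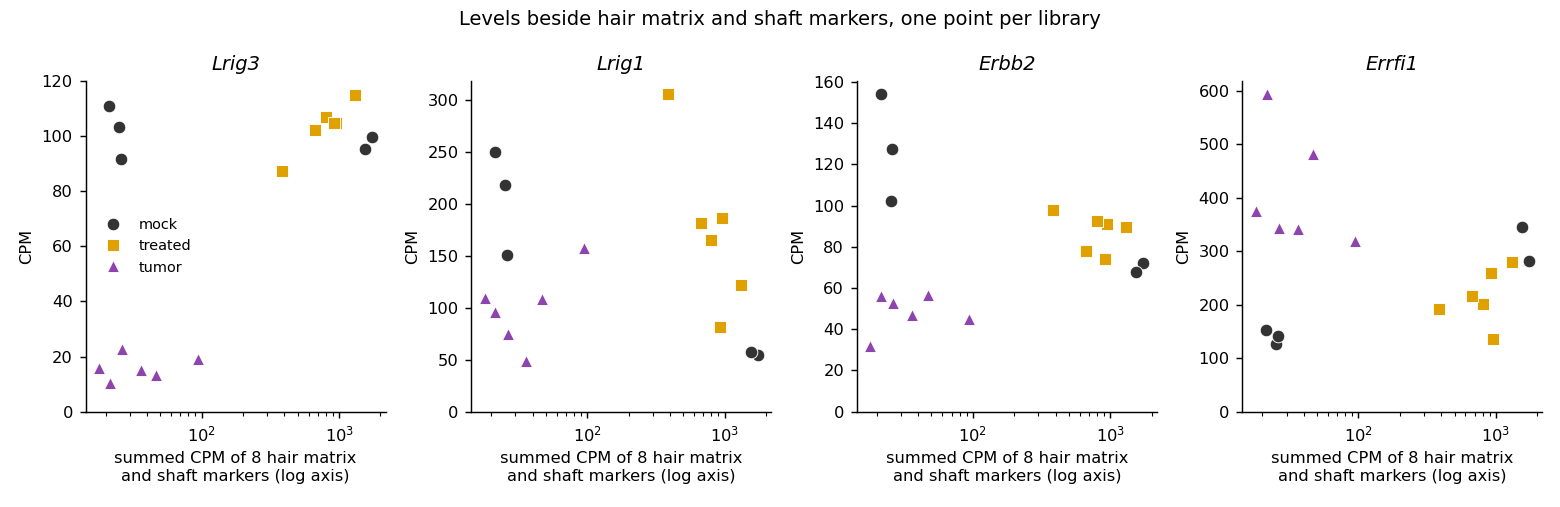
CPM of Lrig3, Lrig1, Erbb2 and Errfi1 (vertical axes, from 0) against the summed CPM of 8 hair matrix and shaft markers (horizontal axes, log scale), with 1 point per library for mock skin (black circles), treated skin (yellow squares) and tumors (purple triangles). Mock libraries form a low cluster (21.3 to 25.9 CPM) and a high cluster (1542 to 1735 CPM) of marker levels, and Lrig3 is between 91.6 and 111 CPM in both.

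The other genes of the pathway were taken from lists by role. Ligands stood out, in a list that was chosen with earlier results of these data known. As a mean of both genotypes, 8 of 10 tested ligands were called higher and 0 lower in tumors than in mock skin. Of all genes, 8.68% were higher and 12.1% lower there. Against treated skin 7 of 9 ligands were higher and 0 lower, beside 9.91% and 17.3% of all genes. The median log2 fold change of the ligands was 2.59 and 3.48, beside −0.08 and −0.07 over all genes. Ereg (epiregulin) rose from 2.68 ± 2.64 CPM in treated skin to 561 ± 431 CPM in tumors (SD, n = 6 each), or by 7.44 ± 0.55 on the log2 scale (edgeR adjusted p = 1.87e-06). Areg (amphiregulin) rose by 4.58 ± 0.33 and Nrg1 (neuregulin 1) by 4.04 ± 0.25 (edgeR adjusted p = 1.77e-06 and 1.34e-06). Epgn (epigen) rose by 3.61 ± 0.28, Tgfa by 3.48 ± 0.31, Nrg2 by 2.70 ± 0.31 and Hbegf by 2.65 ± 0.25. Btc (betacellulin) was called against mock skin (2.40 ± 0.46) and not against treated skin (0.80 ± 0.39, edgeR adjusted p = 0.1004). Egf, tested only against mock skin (−0.29 ± 0.73), and Nrg4 (−0.14 ± 0.26 and −0.20 ± 0.25) were not called. Between genotypes in tumors 0 of 9 ligands were called, where 0.0213% of all genes were called higher and 0.00711% lower. With so few calls, 0 of 9 cannot set the ligands apart from other genes. By edgeR 5 of the 9 had an unadjusted p under 0.05, as did 1975 of all 14067 genes tested. The ligands were not rerun under the alternative settings. Areg was 1.93 ± 0.44 and Ereg 1.54 ± 0.42 higher in ΔK14 tumors on the log2 scale (edgeR adjusted p = 0.190 and 0.228). Epgn (1.23 ± 0.41) and Nrg1 (0.60 ± 0.26) had positive differences as well, and Nrg4, a ligand of ERBB4, had a negative one (−1.59 ± 0.40, edgeR adjusted p = 0.209). Within ΔK14 mice Nrg4 was called lower in tumors than in treated skin (−1.06 ± 0.29, edgeR adjusted p = 0.0215).

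The counts in the other lists stand beside 8.68% of all genes called higher and 12.1% lower against mock skin, and 9.91% and 17.3% against treated skin. For lists this short, 1 or 2 called genes lie near those shares. Of 5 genes of ligand shedding, 1 was called higher in tumors against mock skin and against treated skin, the metalloprotease Adam12 (3.70 ± 0.75 and 3.29 ± 0.39). Adam17, which releases several of these ligands, differed by 0.31 ± 0.24 and 0.56 ± 0.16 (edgeR adjusted p = 0.366 and 0.0103) and was not called. Of 11 adaptors and effectors, the kinase Src was higher in both comparisons (1.37 ± 0.23 and 1.29 ± 0.19) and Pik3r1, a regulatory subunit of PI3-kinase, was lower against mock skin (−1.04 ± 0.30). Of 10 genes of receptor ubiquitination and trafficking, Socs5 was higher in both (1.75 ± 0.22 and 1.23 ± 0.21) and Sh3kbp1 against mock skin (1.99 ± 0.58). The ubiquitin ligases of the receptors, Cbl, Cblb and Cblc, were not called. Of 11 genes that are induced by or restrain ERK signaling, 4 were called higher and 2 lower in both comparisons. Against treated skin, Dusp4 rose by 3.13 ± 0.43, Spry2 by 2.36 ± 0.20, Fosl1 by 2.28 ± 0.17 and Dusp5 by 1.68 ± 0.18, while Spry1 changed by −1.96 ± 0.21 and Egr1 by −1.28 ± 0.17. Feedback inhibitors of this list thus moved both ways, with Spry1 lower and Spry2, Dusp4 and Dusp5 higher. No gene of these 4 lists was called between genotypes in tumors, beside 0.0213% of all genes called higher and 0.00711% lower. Adam12 had the smallest unadjusted p of these lists (3.01 ± 0.46, edgeR adjusted p = 0.144).

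**Figure D5:**
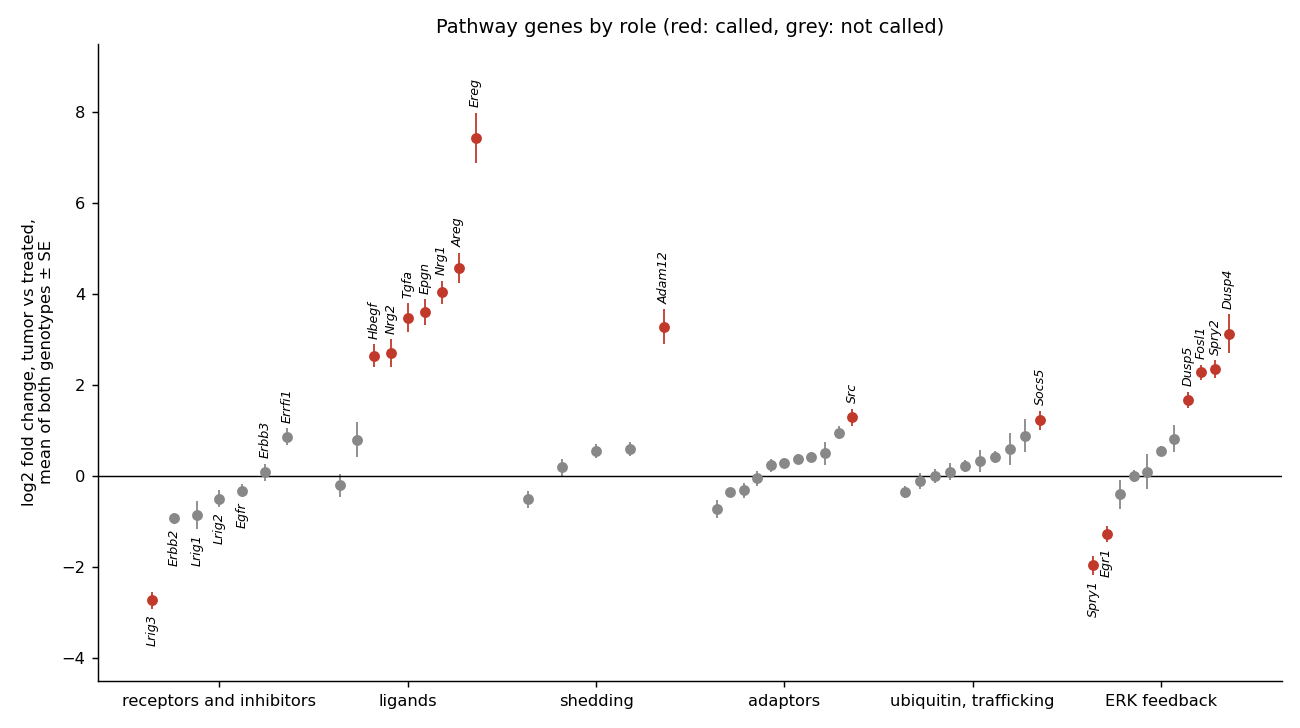
Log2 fold change ± SE of tumors against treated skin, mean of both genotypes (vertical axis), for the tested genes of 6 roles (horizontal axis). Red points are called genes and grey points are not. Ligands reach 7.44 (Ereg), whereas the receptors, the LRIG genes and Errfi1 lie between −2.73 (Lrig3) and 0.86 (Errfi1).

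The 3 genes closest to each member over the 17 libraries were found by the root mean square (RMS) difference of centered log2 CPM among 18251 other genes. For Lrig3 they were Adgra3, Bcl7a and Eda (RMS 0.32 to 0.37, where the SD of Lrig3 itself was 1.34). For Erbb2 they were Snx33, Fgfr2 and Ctdsp2 (0.17 to 0.20, SD 0.58), for Errfi1 Fbxo33, Cox17 and Atg101 (0.20 to 0.24, SD 0.65), and for Lrig1 B230216N24Rik, Sgpp1 and Plxdc2 (0.32 to 0.38, SD 0.78). Egfr was closest to Clasp1, Kansl1 and Pcnx3 (0.11 to 0.14, SD 0.24), Erbb3 to Tmem65, Ctnnd1 and Gm28635 (0.16 to 0.18, SD 0.42), and Lrig2 to Lrrc8e, Galnt11 and Mbd5 (0.15 to 0.18, SD 0.44). No test was made of these likenesses, and the libraries are shared by all genes.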

How the data were processed

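Total RNA of sorted epidermal cells was made into Ovation SoLo libraries and sequenced on an Illumina HiSeq. Per the labels, the submitters' processing notes name Trimmomatic 0.36, STAR 2.5.3, HTSeq 0.9.1, DESeq2 and the build mm10. The authors deposited whole-number counts for each gene, with no normalization. The annotation release, use of strand and duplicate removal are not given in the sources used here.

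Tests were run in edgeR 4.0.16 under R 4.3.3. DESeq2 1.42.0 was an alternative. Each fit used the libraries of the groups compared, filterByExpr, TMM and the two-sided quasi-likelihood test, with Benjamini-Hochberg adjustment over all genes tested. Genes were called if they changed more than 2-fold at an adjusted p below 0.05. The SE is that of the fitted log2 fold change. CPM used TMM-scaled sizes over 17 libraries. Lengths are unions of exons in GENCODE, GRCm38. The plan was to name all 8 members, Zfp36, up to 4 called genes per list and direction, and the 3 nearest patterns. More than 4 called ligands are named, as are single cell type markers and genes that were not called. These additions were made after their values were seen. The members and lists were chosen with earlier results of these data known. The scripts were tested on simulated data. Alternatives were DESeq2, RLE scaling, a replicate block, 1 fit of all libraries, no low-count filter, each library left out, the identical columns as 2 libraries and, added after seeing the data, mock replicate 1 of both genotypes left out.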

Additional observations from a re-analysis of the deposited data

How the results depend on the processing

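Lrig3 was called lower in tumors under all alternatives run, except in ΔK14 tumors against mock skin without tumor ΔK14 replicate 2 or 3. Counts of members called moved elsewhere, and the cause was not tested. For fl/fl tumors against mock skin the number lower was 2 by DESeq2, in 1 fit of all libraries and with no low-count filter (each adding Erbb2 to Lrig3), and leaving out 1 library it ran from 1 to 2, with 0 to 1 higher. Against treated skin 0 to 1 were higher in fl/fl tumors. For ΔK14 tumors against mock skin 2 were lower with the identical columns as 2 libraries, and leaving out 1 library gave 0 to 3 lower and 0 to 1 higher. Against treated skin DESeq2 gave 2 lower (Lrig3 and Lrig1), no low-count filter 2 lower and 1 higher, 1 fit of all libraries 1 higher, and leaving out 1 library 1 to 2 lower and 0 to 1 higher. With both genotypes averaged, 1 was higher against mock skin (Errfi1) with a replicate block, with the identical columns as 2 libraries and without mock replicate 1 of both genotypes, and leaving out 1 library gave 0 to 1 higher and 1 to 2 lower. Against treated skin 2 were lower with no low-count filter (Lrig3 and Erbb4), and leaving out 1 library gave 1 to 2 lower and 0 to 1 higher.

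Signs changed only for differences that were not called. With the replicate block, ΔK14 against fl/fl mock skin became 0.091 for Erbb2, 0.19 for Erbb3 and 0.055 for Lrig2, and treated against mock skin became 0.085 for Lrig1 in fl/fl and 0.099 for Errfi1 in ΔK14 mice. With the identical columns as 2 libraries, Erbb3 was 0.026 and Lrig2 0.030 between mock genotypes, and Errfi1 0.091 in treated against mock ΔK14 skin. In 1 fit of all libraries and with no low-count filter, Erbb3 was 0.064 and 0.094 between tumor genotypes, and Egfr 0.035 and 0.063 in ΔK14 tumors against mock skin. In treated against mock skin of both genotypes Errfi1 was −0.0032 by DESeq2 and −0.0033 with RLE, and Lrig1 −0.086 without mock replicate 1 of both.

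Leaving out 1 library, ΔK14 against fl/fl ranged in mock skin from −0.72 to 0.23 for Erbb2, −0.66 to 0.28 for Erbb3, −0.42 to 0.21 for Lrig2 and −0.41 to 0.86 for Errfi1. In treated skin it ranged from −0.16 to 0.29 for Erbb3, −0.24 to 0.59 for Lrig1, −0.34 to 0.034 for Lrig2 and −0.13 to 0.39 for Errfi1. In tumors it ranged from −0.27 to 0.26 for Erbb3, −0.64 to 0.074 for Lrig1 and −0.61 to 0.031 for Lrig3. Treated against mock fl/fl skin ranged from −0.013 to 0.14 for Egfr, −0.46 to 0.10 for Erbb2, −0.53 to 0.27 for Lrig1, −0.39 to 0.050 for Lrig2 and −0.14 to 0.59 for Errfi1. In ΔK14 mice it ranged from −0.60 to 0.34 for Erbb2, −0.61 to 0.32 for Erbb3, −0.51 to 0.11 for Lrig2 and −0.59 to 0.66 for Errfi1, and with both averaged from −0.41 to 0.024 for Erbb2 and −0.24 to 0.42 for Errfi1. Tumors against mock skin ranged from −0.64 to 0.0077 for Erbb3 in fl/fl mice, from −0.19 to 0.093 for Egfr, −0.54 to 0.39 for Erbb3 and −0.73 to 0.69 for Lrig1 in ΔK14 mice, and from −0.45 to 0.0019 for Erbb3 over both. Tumors against treated skin ranged for Erbb3 from −0.20 to 0.36 in fl/fl, −0.20 to 0.29 in ΔK14 mice and −0.062 to 0.21 over both, and for Egfr from −0.24 to 0.033 in ΔK14 mice.

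Same-numbered libraries did not deviate together in every pair (correlations from −0.55 to 0.78), so the main fits took the numbers as names and not as pairs. Between the mock genotypes they did deviate together, at 0.78 for replicate 1 and 0.57 for replicate 2. There the replicate block gave 78 genes higher and 32 lower, and the main fit 0 of each. With the 9-base motif 2 members in place of 6 held a site. Over all genes, tumor genotype calls were 61 higher and 61 lower in 1 fit of all libraries, 766 and 627 with no low-count filter and 0 with the replicate block.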
